A study of Mus musculus with 13 samples.

Results

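Single cells of whole abdominal epidermis taken 6 days after birth (dpp6) were set against those of gestation day 16 (dpc16), the late pregnancy state from which the skin had just come. Barcodes were taken if they showed 200 genes or more and if mitochondrially encoded genes gave no more than 10% of their UMIs (unique molecular identifiers, 1 per captured RNA molecule). This gave 9031 cells at dpp6 and 12853 at dpc16, out of 36927 in the 4 single-cell libraries of the series. The other two libraries, from non-pregnant mice (NP) and from day 40 post partum (dpp40), are given as context. Each state is 1 library, so differences have no replicate check, no test was possible, and intervals cover counting error only.

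All 4 libraries came from C57BL/6 mice of the genotype Tbx3creERT2; R26H2B EGFP, whose name marks a tamoxifen-inducible Cre recombinase under the control of Tbx3 and a histone-EGFP reporter. The 3 states after conception received tamoxifen in pregnancy and the NP control for 3 days, so tamoxifen is common to all 4 states and its schedule differs. Skin freed of subcutaneous fat was trypsinised to remove the dermis, and cells were captured at random with the 10x Chromium v2 kit. The number and age of the animals behind a library, whether the dams at dpp6 were nursing, and the capture dates are unknown here. Animal, capture run and state therefore cannot be told apart.

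The epidermis is renewed by basal keratinocytes, marked by keratins 5 and 14, whose daughters move up through spinous layers with keratins 1 and 10 and granular layers with loricrin before they die as cornified cells. Hair follicles open through the infundibulum, carry the sebaceous gland below it, and keep their stem cells in the bulge, where Cd34, Lhx2, Lgr5 and Sox9 are known markers. Langerhans cells, which present antigen on MHC class II, and resident T cells live among the keratinocytes. Abdominal skin stretches in pregnancy and is released at birth.

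The kept cells held 39767733, 74289307, 55426034 and 62587510 UMIs in NP, dpc16, dpp6 and dpp40. Throughout, 4 values in a row are in this order. A dpp6 cell held a median of 5014 UMIs and 1590 genes against 4448 and 1455 at dpc16. The share of barcodes over the mitochondrial limit was 3.39% at dpp6, the highest of the 4, and 0.994% at dpc16, the lowest. The design text states 9029 cells for dpp6 and 12846 for dpc16, close to the 9031 and 12853 kept. The 2 libraries shared 140 cell barcodes (1.55% of the dpp6 cells), within the 70 to 147 shared by each pair of the 4 libraries. No doublets were removed, and 147 cells at dpp6 and 163 at dpc16 held more than 20000 UMIs.

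Levels are CPM, the UMIs of a gene summed over all kept cells and scaled to a library total of 1000000, a sum in which each cell type weighs by its cells and their RNA. More cells of a type and more RNA per cell of it cannot be told apart in a CPM, so shares of cells are given beside it. A gene counts as higher or lower at dpp6 when its ratio to dpc16 is past 2-fold, with a mean of at least 10 CPM over both libraries. Of 7105 genes with that mean, 142 were higher (2%) and 45 lower (0.633%). These shares are the base for all counts of list genes past 2-fold over all cells given below. A short list with none past 2-fold lies near this base. Most genes differed little: 92.0% lay within 1.5-fold, and the median log2 ratio over all of them was 0.07. On that scale 62.1% of all genes lay above 0, the base for the counts of list genes above 0 given below. Scaling by the median of gene ratios in place of the UMI total moved that median to -0.06 and gave 104 higher and 54 lower, so that 65.8% rather than 75.9% of the genes past 2-fold were higher.

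**Figure D1:**
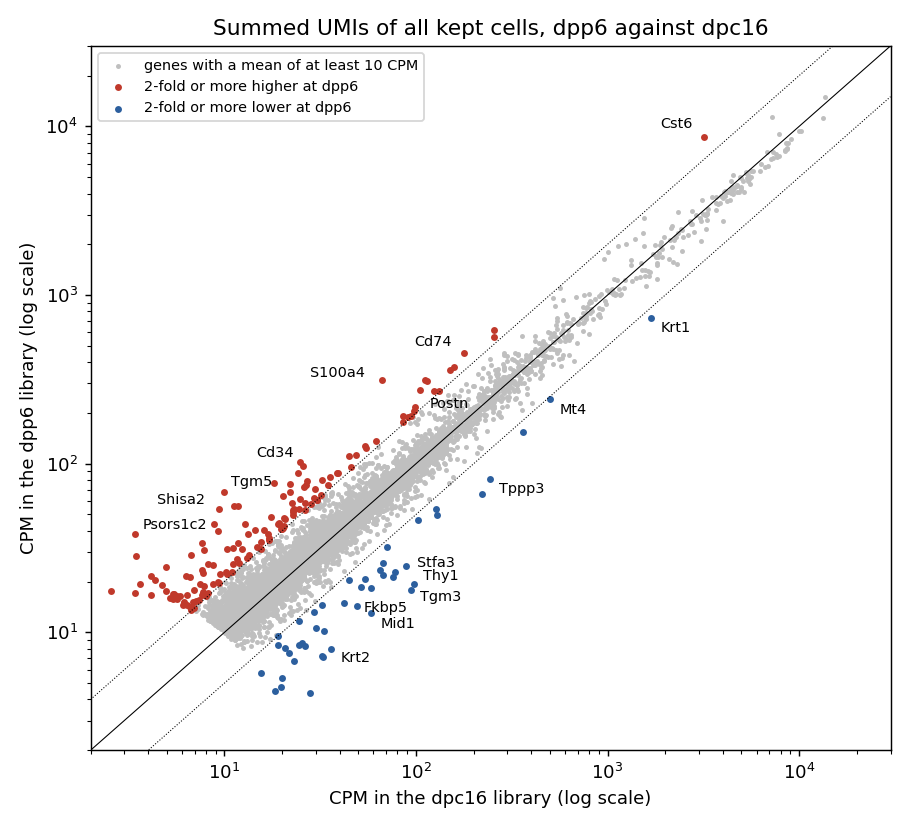
CPM of each gene with a mean of at least 10 CPM in the dpp6 library against the dpc16 library, both on log axes. The solid line marks equal levels and the dotted lines 2-fold. The 142 red points lie above and the 45 blue points below the dotted lines, with Cst6 the most abundant gene above and Krt1 the most abundant below.

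Genes of the hair follicle bulge were higher at dpp6 than in any of the other 3 libraries. Of the 12 genes on the bulge and outer root sheath list, 10 reached the mean of 10 CPM, 5 of these were past 2-fold higher and none lower, beside 2% and 0.633% of all genes. The median log2 ratio of the 10 was 1.17, against 0.07 over all genes. Cd34, a surface glycoprotein of bulge stem cells (chromosome 1, 194938819 to 194961279 in mm10), stood at 50.6, 25.8, 97.4 and 41.6 CPM. The dpc16 value (95% Poisson interval 24.7 to 27.0) was the lowest and the dpp6 value (94.8 to 100.01) the highest, a ratio of 3.77. Lhx2, a LIM homeobox factor of follicle stem cells, stood at 49.6, 24.9, 102 and 47.7 CPM. Lgr5, an R-spondin receptor of the lower bulge, stood at 17.6, 3.47, 28.6 and 15.9 CPM, the largest ratio on the list at 8.22. Postn, the matrix protein periostin, was at 177, 105, 275 and 164 CPM. Sox9, a transcription factor of the outer root sheath, was at 133, 92.6, 174 and 124 CPM and stayed short of 2-fold (log2 ratio 0.91). In each of these 5 genes NP and dpp40 lay between the dpc16 and dpp6 values.

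More cells held several bulge markers. With every cell thinned to 2000 UMIs, cells with UMIs of at least 4 of the 12 genes made up 7.18%, 2.61%, 14.3% and 5.96% of the libraries. The 1289 such cells at dpp6 (exact binomial interval 13.6% to 15.01%) compare with 335 at dpc16 (2.34% to 2.90%), a ratio of shares of 5.48. Without thinning the shares were 7.51% at dpc16 and 25.9% at dpp6. Background from free RNA was read in MHC class II-high cells, which should lack these genes (at least 50 UMIs of 7 Langerhans and myeloid genes per 2000 UMIs; chosen after the data were seen). Of these, 0 of 99 at dpc16 (which allows up to 3.03%) and 3.68% of 163 at dpp6 reached the count of 4 bulge markers, at median depths of 3934 and 3613 UMIs. Single genes followed: UMIs of Cd34 were in 4.17% of thinned cells at dpc16 and 15.6% at dpp6 (7.81% and 22.4% without thinning), with 2.02% and 7.36% of MHC class II-high cells.

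Among the 15 largest ratios above 1 were further genes, of which Shisa2, Tbx1 and S100a4 were concentrated in the cells with bulge markers. Levels in those cells are not given here for Kcnk2, Hmcn1 and Sncg. Shisa2, an inhibitor of Wnt and FGF receptor maturation, stood at 25.0, 9.34, 53.8 and 23.7 CPM. Tbx1, a T-box transcription factor found in follicle stem cells, stood at 24.1, 8.82, 43.9 and 19.3 CPM. Kcnk2, a two-pore potassium channel, stood at 27.8, 11.8, 56.0 and 17.8 CPM. All 3 were lowest at dpc16 and highest at dpp6, at 5.76, 4.97 and 4.74 times the dpc16 level. Within the bulge marker cells of dpp6, Shisa2 reached 299 CPM, Tbx1 231 and Cd34 728, against 53.8, 43.9 and 97.4 over all dpp6 cells. S100a4, a small calcium-binding protein, had 125, 66.7, 312 and 157 CPM over all cells and 2049 CPM in the bulge marker cells of dpp6. Its UMIs were also in 82.8% of the MHC class II-high cells at dpp6, so S100a4 was not limited to follicle cells. Hmcn1, an extracellular matrix protein of the hemicentin family, and Sncg, gamma-synuclein, were at 7.65 and 9.29 CPM at dpc16 and at 33.7 and 40.1 CPM at dpp6.

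Upper follicle genes were higher as a group as well, from a higher base. On the infundibulum and upper follicle list 10 of 12 genes reached 10 CPM, with 6 past 2-fold higher, none lower and a median log2 ratio of 1.04. Their summed level was 10253, 6577, 14489 and 10243 CPM, the lowest at dpc16 and the highest at dpp6. The largest part of it came from Cst6 (chromosome 19, 5344705 to 5349574), cystatin E/M, an inhibitor of lysosomal cysteine proteases. Cst6 stood at 4740, 3178, 8620 and 4790 CPM, and its intervals at dpc16 (3165 to 3190) and dpp6 (8595 to 8644) lie far apart. It was detected in 51.0% of thinned cells at dpc16 and 71.5% at dpp6 (75.6% and 92.6% without thinning). However, 50.5% and 66.9% of MHC class II-high cells also held Cst6 UMIs, so these shares lie close to background. Thinned cells with 5 or more Cst6 UMIs were 7.99% at dpc16 and 13.5% at dpp6. Krt17, a follicle keratin, was at 1927, 1397, 2163 and 1914 CPM and did not reach 2-fold.

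Klk10, a kallikrein serine peptidase, differed in another way. Its level was 20.02, 21.9, 75.4 and 21.5 CPM, yet its share of thinned cells was 3.15% at dpc16 and 3.32% at dpp6. The 10 highest cells carried 58.9% of the dpp6 UMIs of Klk10 and 28.5% of those at dpc16. Psors1c2, a gene of the psoriasis susceptibility 1 region, had the largest ratio of the named genes at 11.1, with 20.1, 3.43, 38.2 and 28.6 CPM, and was as concentrated: 10 cells held 59.9% of its dpp6 UMIs and 53.3% of those at dpc16. Both values therefore rest on few cells.

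Cells with at least 4 of 12 upper follicle markers after thinning were 30.6%, 17.1%, 30.3% and 27.8% of the libraries. The dpc16 share stood apart from the other 3, and dpp6 lay within 1 percentage point of NP. MHC class II-high cells reached this count in 9.09% at dpc16 and 16.0% at dpp6, and without thinning the shares were 38.3% and 58.4%. Sebaceous genes were higher too: 7 of 12 reached 10 CPM, 4 were past 2-fold higher and none lower, with a median log2 ratio of 1.05. Cidea, a lipid droplet protein of sebocytes, stood at 20.8, 4.95, 24.5 and 22.7 CPM. Scd1, the stearoyl-CoA desaturase, was at 151, 90.8, 188 and 202 CPM, and Apoc1, an apolipoprotein, at 1066, 750, 1006 and 1220. In all 3 the dpc16 library was lowest, and NP and dpp40 were close to dpp6. At least 4 sebaceous markers were held by 1.71%, 0.934%, 2.49% and 1.63%. That is 120 cells at dpc16 and 225 at dpp6, with 0 of 99 and 0 of 163 MHC class II-high cells at that count. Without thinning these shares were 6.43% and 10.2%.

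**Figure D2:**
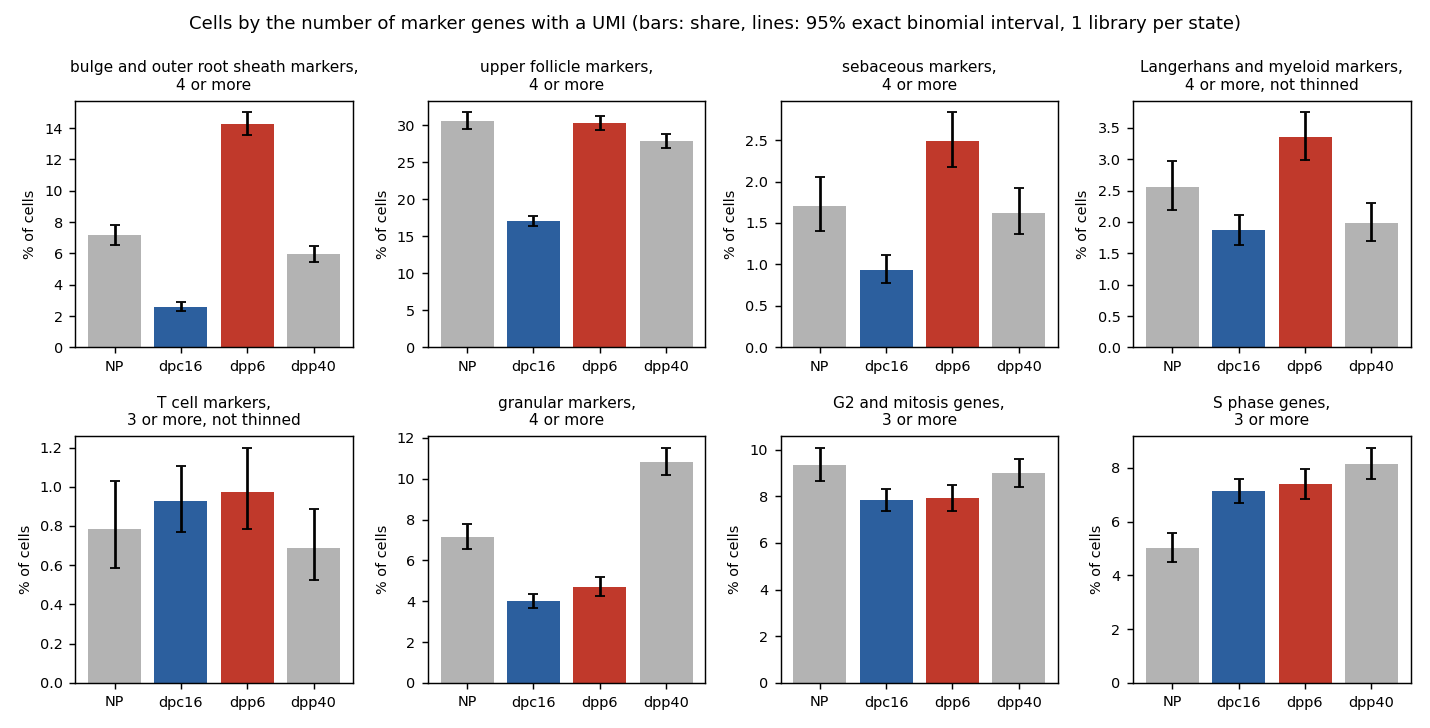
Share of cells, in percent of each library's kept cells, that hold UMIs of at least the stated number of markers, for 8 marker lists and the 4 libraries. Bars are shares and lines 95% exact binomial intervals for counting error. The bulge share is 14.3% at dpp6 and 2.61% at dpc16, while the shares with 3 or more S phase genes differ little between these 2 libraries.

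A pair of transglutaminases, enzymes that cross-link proteins of the cornified envelope, stood at opposite ends of the comparison. Tgm5 (chromosome 2, 121046111 to 121085841) was at 20.2, 9.97, 68.3 and 40.9 CPM, 6.85 times higher at dpp6 than at dpc16. Tgm3 (chromosome 2, 130012349 to 130050399) was at 14.6, 94.4, 17.9 and 7.49 CPM, 5.28 times lower at dpp6. Tgm3 was thus high in the dpc16 library alone of the 4, and Tgm5 highest at dpp6. Thinned cells with a Tgm5 UMI were 2.04% at dpc16 and 13.2% at dpp6, and those with a Tgm3 UMI 17.3% and 3.26% (4.30%, 20.8%, 32.9% and 7.57% without thinning). In MHC class II-high cells, Tgm5 was found in 4.04% and 7.36% and Tgm3 in 10.1% and in 0 of 163, which allows up to 1.84%. Mean UMIs per thinned cell that held any were 1.19 and 1.58 for Tgm5 and 1.27 and 1.17 for Tgm3. Such means lie near 1, the lowest possible, so more positive cells and more RNA per cell cannot be told apart here. Bulge marker cells held 153 CPM of Tgm5 at dpc16 and 411 at dpp6, and 53.6 and 4.02 CPM of Tgm3. The promoters of this pair are shown because they head the 2 directions within 1 gene family. They run from 250 bases before to 50 after the start site in RefSeq on GRCm38.p6, Tgm5 at chr2:121085792-121086091 on the minus strand and Tgm3 at chr2:130012090-130012389 on the plus strand. Both are written 5′ to 3′ along the gene, with capitals for a TATAAA match:
Tgm5: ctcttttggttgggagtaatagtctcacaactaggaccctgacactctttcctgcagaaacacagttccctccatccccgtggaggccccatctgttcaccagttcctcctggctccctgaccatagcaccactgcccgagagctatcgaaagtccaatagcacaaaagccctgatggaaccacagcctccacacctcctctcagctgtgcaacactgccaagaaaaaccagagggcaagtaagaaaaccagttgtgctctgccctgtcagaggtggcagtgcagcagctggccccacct
Tgm3: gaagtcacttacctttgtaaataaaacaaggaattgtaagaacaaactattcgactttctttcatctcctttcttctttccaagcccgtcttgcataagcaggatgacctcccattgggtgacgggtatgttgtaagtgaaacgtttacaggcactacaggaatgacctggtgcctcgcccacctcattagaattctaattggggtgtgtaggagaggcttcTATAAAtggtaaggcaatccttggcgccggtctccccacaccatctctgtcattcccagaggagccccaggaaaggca
Searched on both strands for TATAAA, for the AP-1 motif TGANTCA, for the STAT5 motif TTCNNNGAA and for a palindromic steroid receptor motif, the Tgm5 promoter held none. The Tgm3 promoter held only TATAAA, at bases 223 to 228 of the 300. Of all 32851 promoters in that set, 13.6% held TATAAA, 7.81% the AP-1, 8.30% the STAT5 and 0.475% the steroid receptor motif.

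Genes of the granular layer and the cornified envelope were mostly higher at dpp6, though few were past 2-fold. Of the 21 genes matched by symbol 19 reached 10 CPM: 2 were past 2-fold higher and 1, Tgm3, lower, with a median log2 ratio of 0.66. Lor, loricrin, the main envelope protein, stood at 3828, 1547, 2866 and 3832 CPM. Lce1m, a late cornified envelope protein, was at 1975, 1011, 1801 and 2606 CPM. Cdsn, corneodesmosin, which holds cornified cells together, was at 106, 44.9, 111 and 141 CPM, 1.31 higher at dpp6 on the log2 scale. All 3 were lowest at dpc16. For Lor and Lce1m dpp6 stayed below both NP and dpp40. The summed list was 8497, 4279, 7351 and 9834 CPM. After thinning, cells with at least 4 granular markers were 7.15%, 4.01%, 4.71% and 10.8% (26.5% at dpc16 and 29.3% at dpp6 without thinning). MHC class II-high cells reached that count in 4.04% and 2.45%. The thinned share of cells with 4 markers was thus 1.17 times higher at dpp6 than at dpc16 (1.03 to 1.33 for counting error). With 5 markers the ratio was 1.26, and with 3 it was 1.08. The summed level was 1.72 times higher. Tgm3, which went the other way, is among the markers counted, and its part in these shares was not tested. UMIs of Lor and Lce1m were concentrated, with 17.7% and 33.0% of the dpp6 UMIs in 10 cells.

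Over all cells most spinous genes lay below 0 on the log2 scale, and basal genes were little different. Of 12 spinous genes past the filter 2 were above 0, none was 2-fold higher and 2 were 2-fold lower, with a median log2 ratio of -0.27. Within the suprabasal keratin range, a set of cells described further on, 6 of 11 were above 0 and none was past 2-fold, with a median of 0.05. Without follicle, sebaceous and immune marker cells 5 of 10 were above 0, with a median of -0.06. Krt1 and Krt10 help to set the keratin range and are not counted as results in it. The medians of these sets therefore do not cover the same genes as the median over all cells. Krt1, the type II keratin of spinous cells (chromosome 15, 101845426 to 101850794), stood at 1002, 1696, 733 and 694 CPM. Mt4, a metallothionein of stratified epithelia, was at 714, 501, 241 and 377 CPM. Krt10, the partner of Krt1, was at 5638, 5573, 4547 and 6460 CPM (log2 ratio -0.29). Krt1 was thus highest in pregnancy, whereas Krt10 was not. Thinned cells with a Krt1 UMI were 42.7% at dpc16 and 21.6% at dpp6 (57.5% and 30.9% without thinning), against 31.3% and 11.04% of MHC class II-high cells. Krt2, a keratin of upper spinous cells, was at 10.8, 36.2, 7.97 and 5.77 CPM. Of 17 basal genes 2 were past 2-fold higher, Igfbp5 and Postn, and the median was -0.13. Igfbp5, an IGF-binding protein, was at 4.48, 4.36, 20.6 and 9.33 CPM. Krt14 was at 3212, 5131, 4072 and 4284 CPM and Krt15 at 7215, 8757, 7992 and 6821, both highest at dpc16.

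The 15 genes with the largest ratios below 1 were all highest in the dpc16 library of the 4. Thy1, a surface glycoprotein (chromosome 9, 44043384 to 44048579), stood at 20.6, 97.9, 19.5 and 19.1 CPM, with intervals of 95.6 to 100.2 at dpc16 and 18.3 to 20.7 at dpp6. Mid1, an X-linked ubiquitin ligase (chromosome X, 169685199 to 170005736), was at 18.9, 58.6, 13.0 and 14.7 CPM. Tppp3, a tubulin-binding protein, was at 89.1, 242, 81.2 and 85.5 CPM. In these 3 the dpp6 level lay near NP and dpp40. The cysteine protease inhibitors Stfa3 and Stfa1, of the stefin A family, were at 13.6, 88.8, 24.9 and 8.05 CPM and at 7.44, 32.7, 7.14 and 2.54 CPM. Stefin genes are near-identical copies, so how their reads divide between members is uncertain. Il22ra2, a soluble binding protein for interleukin 22, was at 41.0, 49.5, 14.3 and 19.7 CPM. For Il22ra2 the NP library was also high, at more than the dpp6 level, so it was not high in pregnancy alone.

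A serine protease inhibitor group was among them. Serpinb12 was at 29.1, 75.6, 21.2 and 8.60 CPM, Serpinb10 at 38.5, 65.0, 23.3 and 32.9, and Serpina3b at 12.2, 33.1, 10.2 and 8.82. All 3 were highest at dpc16, and 10 cells held 52.2% of the dpp6 UMIs of Serpina3b. Npl, an enzyme of sialic acid breakdown, was at 25.2, 67.4, 21.8 and 19.1 CPM. Abcg2, an efflux transporter, was at 9.23, 30.1, 10.6 and 9.91 CPM. Mmp2, a gelatinase, was at 25.4, 67.3, 25.7 and 21.2 CPM, the only gene of 10 on the matrix list past 2-fold lower. Postn was the only one past 2-fold higher there.

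Genes that respond to pregnancy and steroid hormones were split. Of 17 hormone genes past the filter none was past 2-fold higher and 3 were lower, with a median log2 ratio of -0.12. Socs2, a feedback inhibitor induced by STAT5, stood at 5.15, 32.1, 7.27 and 5.16 CPM. Fkbp5, a co-chaperone induced by glucocorticoid and progesterone receptors, stood at 22.2, 58.2, 18.3 and 13.4 CPM. Deptor, an mTOR inhibitor, stood at 14.9, 41.8, 14.9 and 12.4 CPM. These 3 were high at dpc16 and at dpp6 near NP, whereas Prlr, the prolactin receptor, stood at 53.3, 81.3, 68.5 and 43.0 CPM, with dpp6 between dpc16 and NP. Pyy, the hormone peptide YY, was at 25.2, 117, 87.0 and 11.9 CPM, so that dpp6 was still well above NP. Thinned cells with a Pyy UMI were 10.2% at dpc16 and 4.73% at dpp6, with 6.06% and 0.613% of MHC class II-high cells. The 10 highest cells held 21.4% of the dpp6 UMIs of Pyy and 6.61% of those at dpc16. Tsc22d3, another glucocorticoid-induced gene, was at 148, 116, 114 and 146 CPM, nearly level between dpc16 and dpp6.

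**Figure D3:**
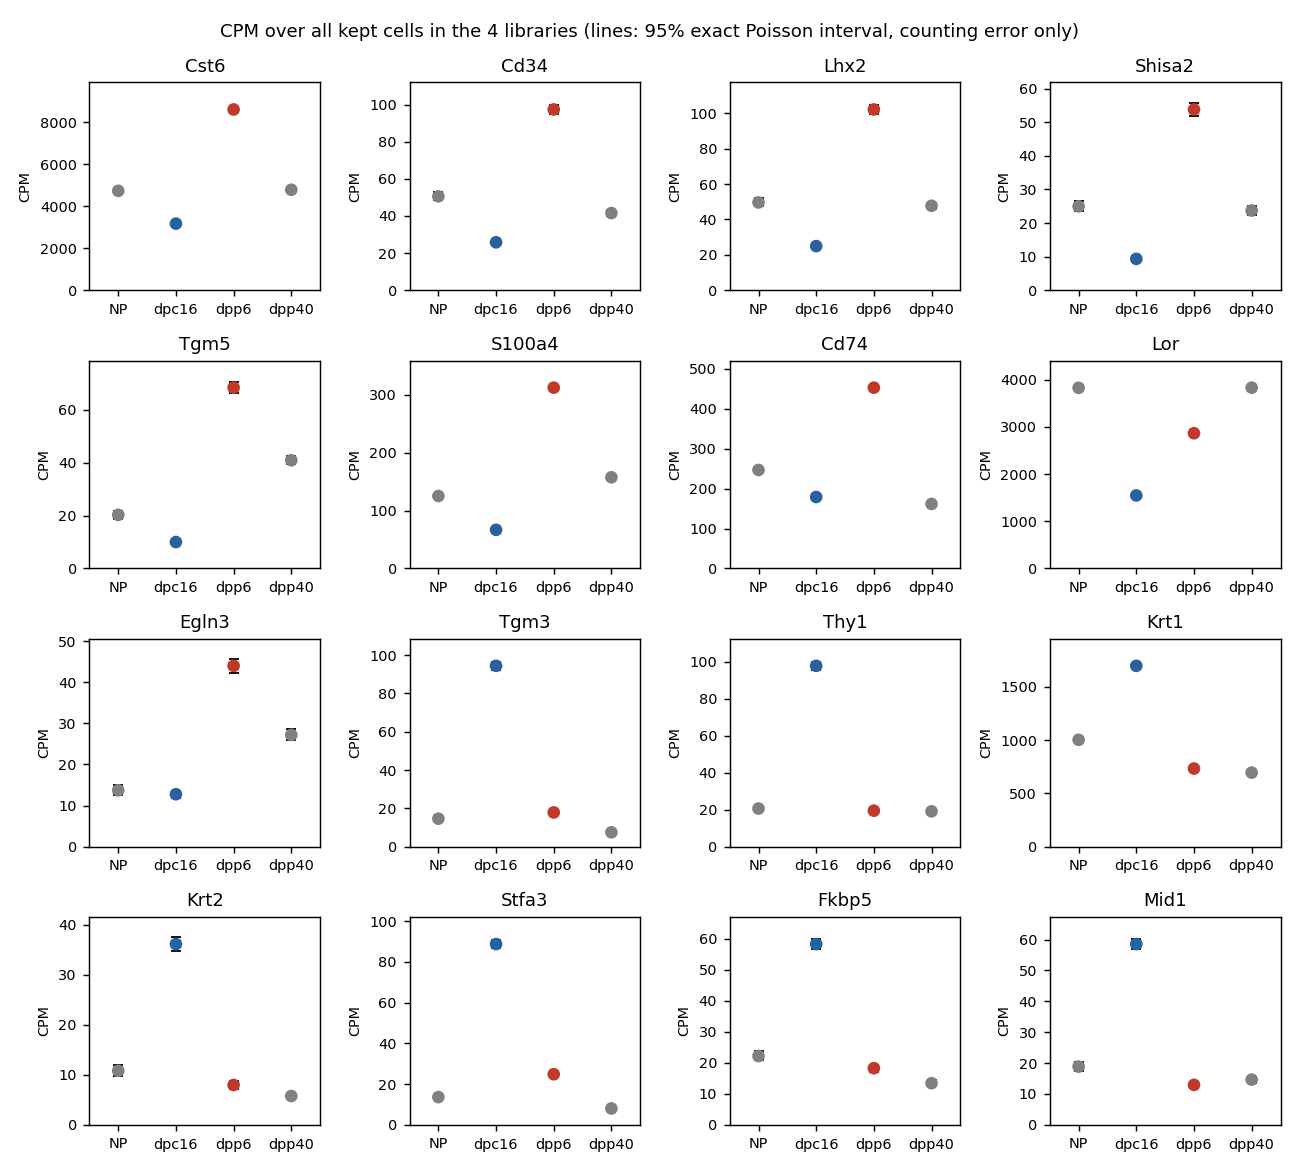
CPM of 16 genes over all kept cells in the 4 libraries, 1 panel per gene, each axis from 0. Points are library values and lines 95% exact Poisson intervals, often smaller than the points. Cd34, Lhx2 and Cst6 are lowest at dpc16 and highest at dpp6, and Tgm3, Thy1 and Krt2 stand out at dpc16 alone.

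Antigen presentation genes were higher at dpp6, and so was the share of cells that carry them. On the Langerhans and myeloid list 8 of 13 matched genes reached 10 CPM, 4 were past 2-fold higher and none lower, with a median log2 ratio of 1.01. Cd74, the invariant chain of MHC class II, stood at 247, 179, 453 and 161 CPM. H2-Ab1 and H2-Eb1, MHC class II chains, stood at 159, 133, 271 and 106 CPM and at 107, 85.2, 191 and 81.9 CPM. Cells with at least 4 of 7 Langerhans and myeloid markers, not thinned, made up 2.56%, 1.87%, 3.36% and 1.99%. That is 240 cells at dpc16 (interval 1.64% to 2.12%) and 303 at dpp6 (2.99% to 3.75%). After thinning the shares were 1.45% and 2.48%. Without the cells that hold follicle, sebaceous or immune markers, Cd74 was at 21.1 CPM at dpc16 and 19.5 at dpp6. The share of MHC class II-high cells was 0.955%, 0.770%, 1.80% and 0.643%. Of these cells, 19 of 99 at dpc16 and 5 of 163 at dpp6 held at least 3 G2 and mitosis genes after thinning (19.2% with an interval of 12.0% to 28.3%, and 3.07% with 1.003% to 7.01%).

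T cell markers showed no such difference. Cells with at least 3 of 6 T cell receptor genes, not thinned, were 0.786%, 0.926%, 0.974% and 0.690%, which is 119 cells at dpc16 and 88 at dpp6, with overlapping intervals (0.768% to 1.11% and 0.782% to 1.20%). After thinning they were 0.685% and 0.819%. Of the 88 cells 88.6% also held Krt14 UMIs. On the T cell list 7 of 16 genes reached 10 CPM, none was past 2-fold higher, and the median log2 ratio was 0.34. The 1 gene past 2-fold lower was Thy1. Fcer1g, an Fc receptor chain shared with myeloid cells, was at 29.1, 25.4, 45.8 and 20.04 CPM and Rgs1, a regulator of G protein signalling, at 13.8, 8.96, 16.3 and 12.2.

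Most cell cycle genes lay slightly above 0 on the log2 scale, while the thinned shares of cells that held several of them were close. Of 22 G2 and mitosis genes past the filter 20 were above 0, with a median of 0.34, and of 15 S phase genes 12, with a median of 0.23. None of them was past 2-fold in either direction. Over all genes, 62.1% were above 0 and the median was 0.07. Without follicle, sebaceous and immune marker cells, a set described further on, all 22 G2 and mitosis genes past the filter were above 0, with a median of 0.53. In the basal keratin range of that set all 30 past the filter were, with a median of 0.59 and 1 past 2-fold. The medians over all genes were 0.06 in the set and 0.05 in its basal range. In that basal range 0.921% of all genes were past 2-fold higher. Mki67, a marker of cycling cells, stood at 19.7, 11.3, 19.0 and 17.5 CPM, and Hmgb2, a chromatin protein, at 373, 291, 325 and 386. Among S phase genes Dut, the dUTP pyrophosphatase, was at 38.6, 63.7, 65.7 and 57.6 CPM, and Ung, uracil DNA glycosylase, at 5.21, 8.91, 11.9 and 10.8. Thinned cells with at least 3 G2 and mitosis genes were 9.35%, 7.83%, 7.92% and 8.98%, with intervals of 7.38% to 8.31% at dpc16 and 7.37% to 8.49% at dpp6. Those with at least 3 S phase genes were 5.01%, 7.13%, 7.39% and 8.15%. Without thinning the dpc16 and dpp6 shares were 23.8% and 24.7%, and 25.1% and 27.0%. The intervals of dpc16 and dpp6 overlapped in both thinned counts and in the unthinned G2 and mitosis count. In the unthinned S phase count they did not, at 24.4% to 25.9% and 26.05% to 27.9%. The S phase share was lowest at NP.

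Genes of glucose use and low oxygen were higher on balance. Of 16 glycolysis and hypoxia genes past the filter 15 were above 0 on the log2 scale, beside 62.1% of all genes. Past 2-fold higher were 2 of the 16, and the list median was 0.46. Egln3, a prolyl hydroxylase induced by hypoxia, stood at 13.7, 12.7, 44.0 and 27.2 CPM. Bnip3, a mitophagy receptor, stood at 35.5, 26.5, 53.4 and 52.5 CPM. Aldoa and Gapdh, enzymes of glycolysis, were at 281, 328, 456 and 367 CPM and at 232, 299, 407 and 326. All 4 genes were highest at dpp6. The median of 17 cholesterol synthesis genes was 0.29. Hmgcs1, the enzyme that starts the pathway, was at 119, 140, 118 and 143 CPM. Of 16 barrier lipid genes 3 were higher, Cers4, Elovl6 and Scd1, and none lower, with a median of 0.05. Cers4, a ceramide synthase, was at 51.7, 18.1, 77.1 and 51.3 CPM, Elovl6, a fatty acid elongase, at 67.9, 29.4, 62.8 and 89.7, and Fabp5, a fatty acid-binding protein, at 254, 183, 299 and 209.

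Signalling lists held single genes past 2-fold rather than shifts of the whole list, beside 2% higher and 0.633% lower over all genes. Of 10 Wnt genes 3 were higher and none lower, with a median of -0.04. Dkk3, a Dickkopf protein, was at 19.0, 8.17, 25.3 and 16.8 CPM and Lgr6, an R-spondin receptor, at 18.4, 7.70, 22.6 and 22.5. Sfrp1, a secreted Wnt antagonist that the naming rule did not pick, was at 38.7 CPM at dpc16 and 87.8 at dpp6. Wnt4, a ligand made by keratinocytes, was at 115, 208, 115 and 80.3 CPM. Dkk3 and Lgr6 were thus lowest, and Wnt4 highest, at dpc16. Of 11 TGF-beta and BMP genes 2 were higher and none lower, with a median of 0.17: Id2, a helix-loop-helix inhibitor, at 68.7, 55.0, 124 and 63.9 CPM, and Grem1, a BMP antagonist, at 24.3, 17.1, 36.4 and 25.0. Of 9 YAP targets 1 was higher, Ctgf, at 36.9, 14.8, 32.0 and 45.0 CPM, with a median of 0.23. None of 9 Notch genes was past 2-fold, with a median of -0.01 and Notch2 at 32.9, 28.3, 16.6 and 23.3 CPM.

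Of 8 chemokine and cytokine genes 1 was past 2-fold higher and none lower, with a median of 0.20. It was Ccl20, a chemokine for cells with the receptor CCR6, at 21.8, 13.3, 38.2 and 21.5 CPM, with 37.4% of its dpp6 UMIs in 10 cells. Of 6 stress keratin and alarmin genes 1 was higher and 2 lower, with a median of -0.34. Sprr1a, a small proline-rich envelope protein, was at 209, 150, 358 and 282 CPM, and the 2 lower genes were the stefins. Il33, an alarmin of the IL-1 family, was at 52.6, 74.1, 54.7 and 54.7 CPM. None of 11 interferon and MHC class I genes and none of 10 p53 targets and cell cycle inhibitors was past 2-fold. Their medians were 0.13 and 0.20. Over all genes 2% were past 2-fold higher and 0.633% lower. Among 10 clock genes Dbp, a clock output factor, was past 2-fold higher at 33.4, 54.2, 128 and 97.0 CPM, and the other 9 were not. The list median was 0.05, and the hour at which skin was taken is not given in the labels.

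Genes that respond to dissociation did not separate dpp6 from dpc16 as groups. Of 18 immediate early genes 1, Egr2, was past 2-fold higher and none lower, with a median of 0.05. Of 10 heat shock genes none was past 2-fold, with a median of 0.04. Fos stood at 1245, 1813, 1501 and 2181 CPM and Hspa1a at 245, 297, 437 and 608. All 40 ribosomal protein genes lay within 2-fold, with 1 of them above 0 on the log2 scale and a median of -0.13. Of 12 mitochondrially encoded genes 1, mt-Nd3, was past 2-fold higher, with a median of 0.18. Under the median of ratios scaling the medians of the immediate early, heat shock, barrier lipid and clock lists turned negative, at -0.08, -0.09, -0.09 and -0.08. Of 3 metallothionein genes past the filter Mt4 was past 2-fold lower, and Mt1 was at 1974, 1020, 1044 and 2244 CPM, low at both dpc16 and dpp6.

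Markers of fibroblasts, endothelium, smooth muscle, adipocytes and milk secretion were scarce. Fibroblast genes summed to 14.2, 12.6, 21.8 and 11.6 CPM, of which Mgp made up 9.93, 11.7, 10.99 and 8.05. Endothelial genes summed to 6.97 CPM at dpc16 and 4.73 at dpp6, smooth muscle and pericyte genes to 1.87 and 2.13, neutrophil and mast cell genes to 4.21 and 4.11, and adipocyte genes to 0.0808 and 0.0722. The milk genes Csn1s1, Csn1s2a, Csn2, Wap, Lalba and Glycam1 had no UMI at dpc16 or dpp6, which allows up to 0.0404 and 0.0541 CPM of each. Xdh, xanthine dehydrogenase, was at 8.10, 19.1, 8.46 and 6.23 CPM. Erythroid genes summed to 1490, 548, 546 and 76.6 CPM. After thinning, few cells held more than 50 haemoglobin UMIs, 13 at dpc16 and 5 at dpp6, while 1154 and 730 held any. Merkel cells and melanocytes are residents of the epidermis and its follicles. Merkel cell genes summed to 0.256 CPM at dpc16 and 1.23 at dpp6. Melanocyte genes summed to 12.8, 9.15, 50.3 and 11.5 CPM, and 14 cells at dpp6 against 3 at dpc16 held at least 3 of 7 melanocyte markers after thinning.

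**Figure D4:**
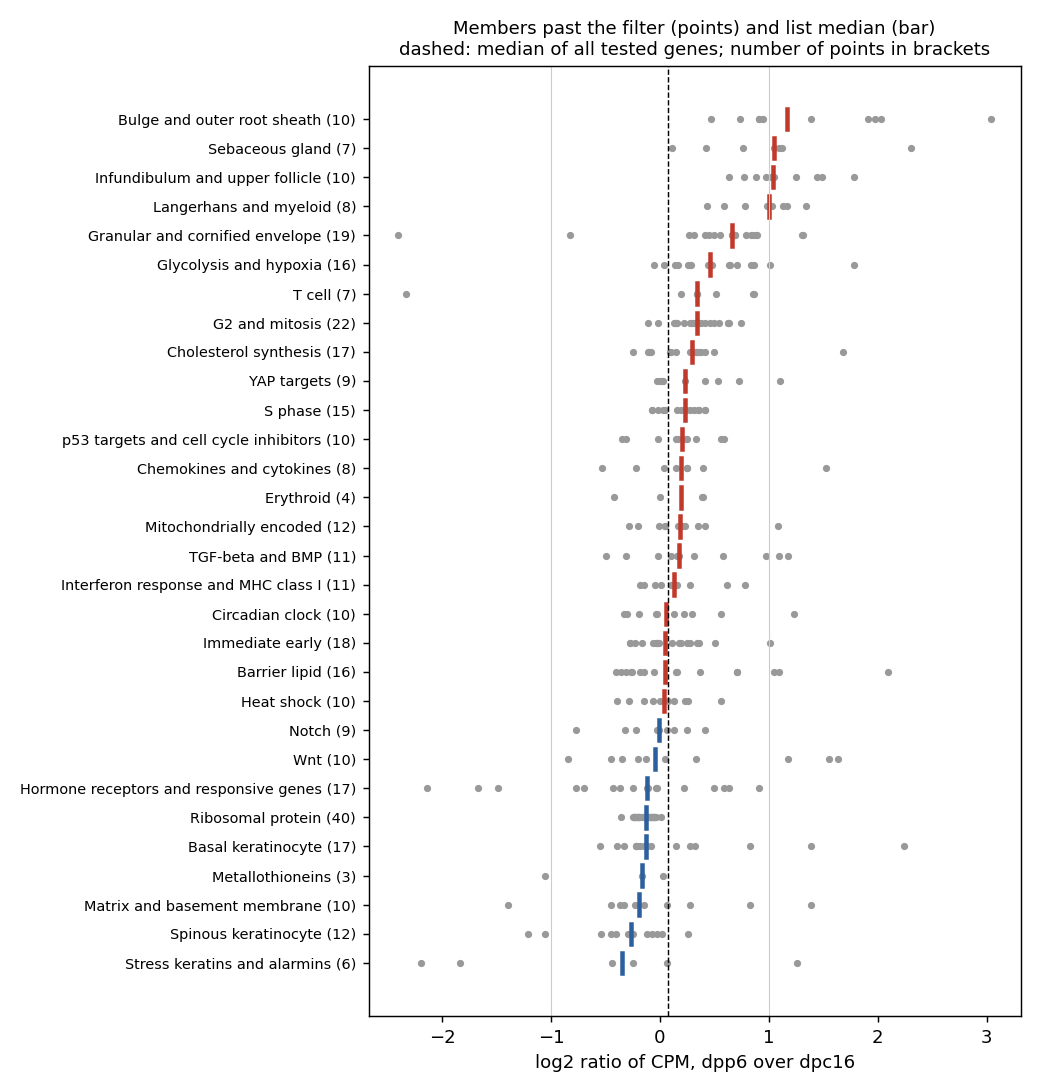
Log2 ratio of CPM, dpp6 over dpc16, for the members of each list that reached a mean of 10 CPM (grey points), with the list median as a bar and the number of members in brackets. The dashed line is the median of all genes, 0.07. Bulge, sebaceous, upper follicle and Langerhans lists have medians past 1, and the ribosomal list is the tightest.

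Since more dpp6 cells carried follicle and immune markers, each comparison was repeated within sets of cells. Cells with at least 20 UMIs of Krt1, Krt10, Krt5 and Krt14 and few immune markers were divided by the share of Krt1 and Krt10 among them, at 0.5. This share is a range and not a cell type. It could be scored in 85.7% of cells at dpc16 and 69.8% at dpp6, and 4.03% and 3.54% of the scored cells lay between 0.4 and 0.6. The upper, suprabasal keratin range held 29.0%, 23.8%, 21.4% and 25.3% of the scored cells, so dpp6 was the lowest. Over all cells Krt1, Krt10 and Krt14 were themselves lower at dpp6 than at dpc16, so this share is not a count of suprabasal cells. A further set left out all cells with at least 3 bulge, 4 upper follicle or 4 sebaceous markers or with immune markers, which kept 76.3% of cells at dpc16 and 49.5% at dpp6. In that remainder 118 of 6958 genes were past 2-fold higher (1.70%) and 41 lower (0.589%). Of these, 56 of the 118 and 39 of the 41 were among the 142 and 45 genes found over all cells. The remainder is a part of the same cells, so this overlap is not an independent check.

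The lower genes stayed lower in each set, and several of the higher genes lay nearer to 0 in the remainder. All 15 genes of the largest ratios below 1 were lower at dpp6 in the basal range, the suprabasal range and the remainder. Krt2 was the exception in size, at -0.15 in the basal range and -2.48 in the suprabasal range on the log2 scale. Krt2 lay above 0, at 0.30, in the basal range without marker cells. Tgm3 was at -2.35, -1.84 and -2.00 in the 3 sets and Thy1 at -2.72, -2.60 and -2.39. Fkbp5 was further down in the suprabasal range (-3.22, from 66.9 to 7.20 CPM) than in the basal range (-1.39, from 49.2 to 18.8 CPM), a difference that was not tested. Serpina3b was likewise at -1.81 in the basal and -3.42 in the suprabasal range. S100a4 went from 2.23 over all cells to 1.06 in the remainder. Cd34 went from 1.91 to 0.71, Postn from 1.38 to 0.65 and Cst6 from 1.44 to 0.91. Cd74 and H2-Ab1 were at -0.12 and -0.07 there, against 1.34 and 1.03. Klk10 was at 0.18 there, against 1.79. Apart from S100a4, these genes belong to the marker lists by which cells were left out, so their values there depend on that choice and are a description only.

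Other genes stayed well past 2-fold in the remainder. Psors1c2 had a log2 ratio of 4.02 there, Lhx2 1.99, Phlda1, a pleckstrin homology-like protein of follicle stem cells, 1.79 and Egln3 2.03. Lhx2 is on the bulge list by which cells were left out, so its value there depends on that choice too. Over all cells Phlda1 stood at 36.7, 24.2, 88.6 and 73.0 CPM. Tgm5 was at 2.01 in the remainder, from 5.34 to 21.5 CPM. Granular genes were further apart in the remainder, with a list median of 1.14 against 0.66 over all cells, and Lor at 1.36, from 1786 to 4584 CPM. However, basal range cells were a smaller part of the remainder at dpp6 (2664 of 4472 cells) than at dpc16 (6825 of 9801). What this mix adds to the median was not tested. The granular list median was 0.85 in the suprabasal range and -0.09 in the basal range. In the basal range Lor was at -0.04. The bulge list had a median of 0.40 in the remainder, the upper follicle list 0.65, the sebaceous list 0.33 and the Langerhans list 0.03. Within the bulge marker cells themselves, Cd34 was at 548 CPM at dpc16 and 728 at dpp6 and Lhx2 at 433 and 543, log2 ratios of 0.41 and 0.33, beside 1.91 and 2.03 over all cells. These 2 genes are among those that chose the cells, so their level there is a description only.

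**Figure D5:**
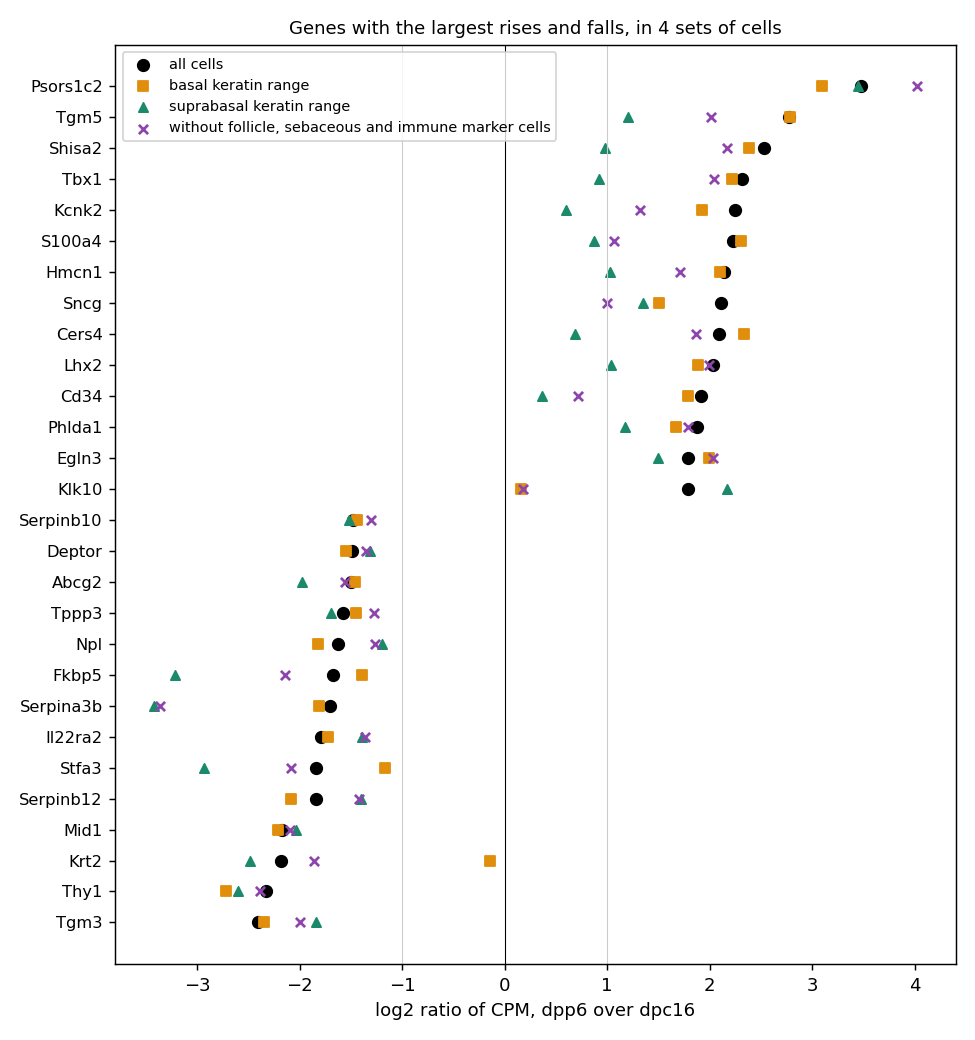
Log2 ratio of CPM, dpp6 over dpc16, of genes with the largest ratios above and below 1, in all cells and in 3 sets of cells. The lower genes lie below 0 in all 4 sets, with Krt2 nearest to 0 in the basal range, and Cd34 and S100a4 move towards 0 without the marker cells.

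Tbx3, the gene named in the Cre allele, was measured at 4.35, 12.6, 3.86 and 2.59 CPM, with a log2 ratio of -1.70 and a mean short of 10 CPM. It was seen in 2.28% of thinned cells at dpc16 and 0.819% at dpp6 (6.50% and 2.26% without thinning). EGFP transcripts of the reporter were rare in all 4 libraries, at 3.29, 2.17, 2.87 and 2.46 CPM.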

How the data were processed

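The authors deposited raw UMI counts per gene and barcode, already filtered to cells by a rule not given in the sources used here. Cell Ranger 2.2.0 and the mouse build mm10 are named in the submitters' processing notes. The files list 28693 genes including an added EGFP, of which 28339 IDs were found in GENCODE M21 for positions. A total of 125 IDs share a symbol with another ID, and list genes with several IDs were not used. The 9 bulk libraries of the series were not used.

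Counts of kept cells were summed per library and scaled to CPM with Python 3.11.15, numpy 2.4.6, pandas 2.3.3 and scipy 1.17.1. Cells were thinned without replacement to 2000 UMIs, with no kept cell shallower. Intervals are exact Poisson for CPM and exact Clopper-Pearson for shares, at 95%. The computation was tested on simulated data. No doublet caller was run.

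Named genes were the 15 largest ratios each way with a mean of at least 20 CPM, leaving out 2 and 3 unnamed gene models, and up to 4 members of each of 40 lists, by change and by level. A few of these are left out and not reported here. Genes named outside this rule were chosen after their values were seen. The members and lists were chosen with earlier results of these data known.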

Additional observations from a re-analysis of the deposited data

Results flagged for a closer look

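Among named genes with at least 50 UMIs in each library and range, 4 were past 1.5-fold in opposite directions in the basal and suprabasal ranges. The number of genes that met the UMI condition is not given, so the 4 have no share beside them. With 1 library per state, the difference was not tested. Pyy was lower at dpp6 in the basal range (log2 ratio -0.72, from 161 to 97.3 CPM) and higher in the suprabasal range (0.95, from 66.1 to 127 CPM). The haemoglobin genes had log2 ratios of -2.13 and 1.92 (Hba-a1), -2.37 and 2.81 (Hba-a2) and -3.04 and 2.56 (Hbb-bs) in the basal and suprabasal ranges. At dpp6, 10 cells held 76.7% of the Hba-a1 UMIs, 89.7% of those of Hba-a2 and 95.2% of those of Hbb-bs.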

How the results depend on the processing

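The numbers of genes past 2-fold, 142 higher and 45 lower, depended on the filter and the fold. They were 459 and 79 at a mean of at least 2 CPM, 35 and 13 at 50 CPM, 1462 and 209 with no filter, and 441 and 129 past 1.5-fold. Under the other scalings, cell filters and thinning they were between 104 and 188 higher and between 44 and 54 lower. The number of lists with a median past 2-fold was 4 in the main setting. It was 1 under the median of ratios, 1 at 50 CPM and 0 in the suprabasal range. Without follicle, sebaceous and immune marker cells it was 1, the granular list, with a median log2 ratio of 1.14. That list was not among the 4 of the main setting, where its median was 0.66. The bulge share ratio of 5.48 was 4.30 with 3 markers, 7.37 with 5, 6.58 at 1000 UMIs and 3.45 without thinning. The upper follicle ratio of 1.77 was 1.61 with 3 markers, 2.09 with 5 and 1.52 without thinning. The sebaceous ratio of 2.67 was 1.79 with 3 markers and 1.59 without thinning. Of 62 named genes past 2-fold, 53 to 62 stayed past it under the planned scalings, cell filters and thinning. Without follicle, sebaceous and immune marker cells, an alternative added after the data were seen, 44 stayed and 2 reversed, Cd74 (-0.12) and H2-Ab1 (-0.0709), both on the immune list that chose which cells to leave out. The cause of these differences was not tested. No paired analysis was possible because each state compared here is 1 library and no test was run. Depth limits the counting error only, since a state is 1 library.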

Other observations

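A few genes with means below 10 CPM stood out at dpp6, and they were chosen after their values were seen. The melanosome genes Mlana, Pmel, Dct and Tyrp1 were at 6.66, 6.03, 16.1 and 3.03 CPM at dpp6, against 0.0942, 0.646, 1.59 and 0.269 at dpc16. Gzmc, a granzyme of cytotoxic lymphocytes, was at 0.981, 0.498, 11.5 and 0.0639 CPM in NP, dpc16, dpp6 and dpp40. Hair shaft and inner root sheath genes summed to 22.5, 14.7, 33.4 and 23.2 CPM in the same order, and each of the 15 stayed below a mean of 10 CPM. Lef1, a Wnt-responsive factor of the hair matrix and germ, was at 0.135 CPM at dpc16 and 1.93 at dpp6. The collagen gene Col1a2, a fibroblast marker, was at 0.713 and 6.24 CPM. Whether these come from single cells of other types or from a broad low level was not tested.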
